A study of Mus musculus with 6 samples.

Results

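The genes described here encode the protein subunits of the cytosolic ribosome, measured by RNA sequencing in the atria of old mice. They were chosen by symbol: protein-coding mouse genes named Rpl or Rps followed by a digit, or Rplp0, Rplp1, Rplp2 or Rpsa, without the Rps6k kinases and without symbols that contain -ps, and with at least 60 counts summed over the 6 libraries. Of 54838 genes in the count table, 86 fit by symbol and 76 also by count. These were 45 genes of the large subunit, 30 of the small subunit, and Rps19bp1, which fits the symbol only and encodes a nucleolar protein that binds RPS19.

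The series asked how loss of protein kinase C epsilon (PKC-epsilon, gene Prkce) changes gene expression in atrial tissue of old mice. Its design names 3 PKC-epsilon knockout (KO) mice and 3 wild-type (WT) controls, of both sexes, at an average age of 20.9 ± 0.43 months, with the kind of error not given. The mouse line field gives JAX stock #004189 for the knockout and C57BL/6J for the wild type; no treatment is named. Each library holds 1 biological replicate by its title, from frozen whole atria, so fewer cells of a type and less RNA per cell cannot be told apart.

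The labels conflict for 4 of the 6 libraries. The library names, used as column headers in the table, call 3 libraries KO and 3 WT, and replicates are named below by that name and the number in the title. The title, genotype field and mouse line give KO for KO replicate 1, WT replicate 2 and WT replicate 3, and WT for WT replicate 1, KO replicate 2 and KO replicate 3. The 2 readings therefore share the placement of KO replicate 1 and WT replicate 1 only, and among the other 4 libraries one contrast is the other with its sign turned. The library names of KO replicate 1 and WT replicate 1 start with Old. Those of the other 4 libraries start with a number and are called the numbered series below. Prkce itself was at 9.20, 5.15 and 28.6 CPM (counts scaled to library size after TMM normalisation) in KO replicates 1, 2 and 3, against 36.2, 11.7 and 30.2 CPM in WT replicates 1, 2 and 3. In either reading it stood against the label in 2 libraries, and both readings are given. Total counts ran from 11574206 to 24138824 per library. The 8 atrial cardiomyocyte markers summed to 44555 to 53329 CPM in all 6 libraries, and no cell-type list of those checked separated the groups by library name. Some lists varied within the groups. The 5 white adipocyte markers summed to 43.6, 151 and 122 CPM in KO replicates 1, 2 and 3, against 43.5, 205 and 92.9 CPM in WT replicates 1, 2 and 3. The part of such differences in the values below was not tested.

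Ribosomal proteins assemble with ribosomal RNA in the nucleolus into a small subunit, which decodes the mRNA, and a large subunit, which joins amino acids. A ribosome holds nearly all of them in equal number, and their genes are expressed in most cells. Their mRNAs typically start with a cytosine followed by a run of pyrimidines, the 5′ terminal oligopyrimidine (TOP) motif, through which the kinase complex mTORC1 and the protein LARP1 adjust their translation. Cardiac muscle also makes RPL3L, a striated-muscle form of RPL3.

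Start-site windows are shown for 8 of the genes named below, because the TOP motif lies there. Of these windows, 4 hold the spellings CTTTC or CTTTTC and 4 do not. RefSeq promoters of GRCm38.p6, running from 250 bases before to 50 bases after the annotated start, were found for 57 of the 76 genes, as 67 promoters. Each line holds the transcript strand, 15 bases before and 15 from the start, with CTTTC or CTTTTC in capitals.
Rplp2 (chr7:141447636-141447665, plus strand): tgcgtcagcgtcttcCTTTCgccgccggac
Rps27 (chr3:90213634-90213663, minus strand): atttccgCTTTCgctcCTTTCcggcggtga
Rps26 (chr10:128626492-128626521, minus strand): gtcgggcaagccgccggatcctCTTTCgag
Rpl12 (chr2:32961697-32961726, plus strand): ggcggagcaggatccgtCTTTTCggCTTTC
Rpl22l1 (chr3:28805493-28805522, plus strand): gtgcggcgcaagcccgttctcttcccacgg
Rpl3l (chr17:24727811-24727840, plus strand): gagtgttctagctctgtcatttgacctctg
Rps25 (chr9:44407699-44407728, plus strand): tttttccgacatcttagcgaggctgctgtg
Rps19bp1 (chr15:80264292-80264321, minus strand): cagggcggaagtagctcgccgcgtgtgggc

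The first 4 windows hold CTTTC or CTTTTC, and those of Rpl22l1, Rpl3l, Rps25 and Rps19bp1 do not. These spellings are narrower than the TOP motif, so a window without them can still hold a run of pyrimidines. That of Rpl22l1 has such a run just after the start. Within 25 bases of the start, on the transcript strand, either spelling occurred in 16 of 67 member promoters (23.9%), against 8.26% of all 32851 promoters of the same length. On both strands the share was 31.3%, against 15.3%. The ETS-type motif CCGGAAG, searched on both strands over the whole promoter, occurred in 24 of 67 (35.8%), against 8.86%. AAGATGGC, the core of the YY1 motif, occurred in 5.97% against 2.75%, and the TATA sequence TATAAA in 10.4% against 13.6%, both on both strands. Several other motif and window definitions had been looked at before these were kept, so the shares are a description only.

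Rps26, which lies near the mRNA exit channel, carries CCGGAAG 214 bases before its start. The 250 bases before that start (chr10:128626507-128626756, minus strand, GRCm38.p6) are shown with the motif in capitals.
Rps26: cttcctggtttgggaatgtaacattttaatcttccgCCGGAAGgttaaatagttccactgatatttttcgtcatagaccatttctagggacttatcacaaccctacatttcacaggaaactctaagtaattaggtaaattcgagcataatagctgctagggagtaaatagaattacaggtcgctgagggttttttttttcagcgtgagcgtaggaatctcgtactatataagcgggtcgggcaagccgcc

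How far each gene can be counted may depend on its copies and neighbours, which was not tested. A median of 52.8% of a transcript's 50-base words also occurred in a transcript of another gene, with a range of 0% to 98.6%, and the share was over 50% in 41 of the 76 genes. The copies are mostly processed pseudogenes, intronless copies of the mRNA. Another 296 symbols of this family in the table, pseudogenes among them, held 56491 counts, against 2168041 for the 76 genes. That sum leaves out pseudogenes named after Rpsa, Rplp0 or Rplp1. Copies with other kinds of names are also left out, such as Gm13841 with 606 counts and Gm13611 with 440. Rpl36 (chromosome 17, 56613416 to 56614243, GRCm38) and Rpl29 (chromosome 9, 106429454 to 106431568), both of the large subunit, shared 81.1% and 66.6% of their words, with 12 and 82 other genes. The first 60 coding bases of Rpl36 and the same stretch of its processed pseudogene Gm13611 (chromosome 2) show why reads can fit both; they have 0 mismatches.
Rpl36: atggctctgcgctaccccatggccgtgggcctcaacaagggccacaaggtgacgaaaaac
Gm13611: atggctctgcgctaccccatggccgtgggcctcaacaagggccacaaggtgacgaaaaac

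Of the genes that fit by symbol, 10 were not members. Of these, 8 were listed at 0 in all libraries: Rpl35, Rpl13, Rps27rt, Rpl7l1, Rpl24, Rpl35a and Rps10, whose bodies are at most 1.9% free of other genes, and Rpl10l, whose body is wholly free. A count of 0 for the first 7 says nothing of their expression. Among those below 60 counts was Rpl39l (30 counts), and the members nearest above it were Rpl36al with 317 (7.6% free) and Rpl17 with 740. All 76 members passed the low-count filter and were tested.

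Levels per length spanned a wide range among the members. The mean over the 6 libraries, in CPM per kb of transcript, had a median of 330.2 and ran from 5.88 to 1167. The transcripts used for length ran from 345 to 5130 bases, with a median of 767.5. These levels, and the paralog ratios below, therefore depend on which transcript was chosen. Highest were the small-subunit genes Rps27 (1167), Rps25 (778) and Rps15 (769). Lowest were Rpl36al (5.88), Rpl17 (9.28) and Rps19bp1 (13.5), followed by Rpl3l (14.8). Rpl36al is largely covered by neighbouring genes and Rpl17 shares 78.7% of its words with other genes, so their low levels are uncertain, while Rpl3l and Rps19bp1 share 0%.

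**Figure D1:**
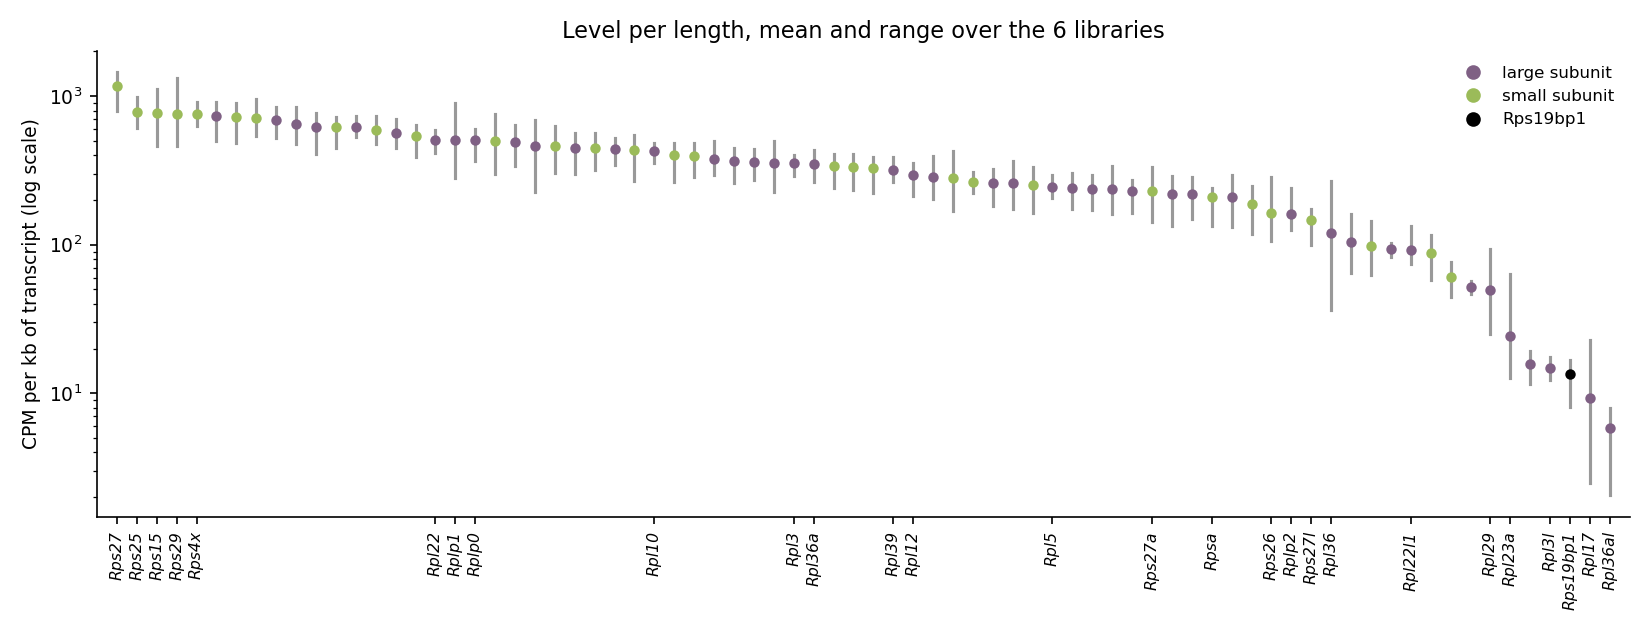
Mean level (points) and range over the 6 libraries (bars) of the 76 genes, in CPM per kb of transcript on a log axis, in falling order and coloured by subunit, with the names of selected genes on the axis. The highest is Rps27 at 1167 and the lowest are Rpl36al, Rpl17 and Rps19bp1.

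The 76 genes moved largely together between libraries, and the pattern did not follow either reading of the labels. They took 2.01%, 2.31% and 2.38% of all counts in KO replicates 1, 2 and 3, against 1.58%, 2.62% and 1.87% in WT replicates 1, 2 and 3. WT replicate 1 was lowest and WT replicate 2 highest, so the libraries named WT enclosed those named KO. The mean share was 2.23 ± 0.20% in libraries named KO and 2.02 ± 0.53% in those named WT (SD, n = 3 each). By genotype field it was 2.16 ± 0.40% in KO and 2.09 ± 0.44% in WT (SD, n = 3 each). The difference was smaller than the SD of the libraries named WT in the first reading, and smaller than both SDs in the second.

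Gene by gene, WT replicate 1 held the lowest value of the 6 libraries for 72 of 76 genes, and WT replicate 2 the highest for 39. On the log2(CPM + 0.5) scale, the median deviation from a gene's own mean was -0.08, 0.15 and 0.17 in KO replicates 1, 2 and 3, against -0.48, 0.28 and -0.10 in WT replicates 1, 2 and 3. Over all genes tested the same median lay between -0.01 and 0.01 in every library. Both subunits did the same: in WT replicate 1 the median was -0.44 for the large and -0.53 for the small subunit, and in WT replicate 2 it was 0.28 and 0.27. The SD over the 6 libraries had a median of 0.31 on the log2 scale over the 76 genes, against 0.23 over the 11538 tested genes at or above the lowest member's level. That set is not matched in level, as it starts at 3.09 CPM while the members had a median of 252.9 CPM.

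**Figure D2:**
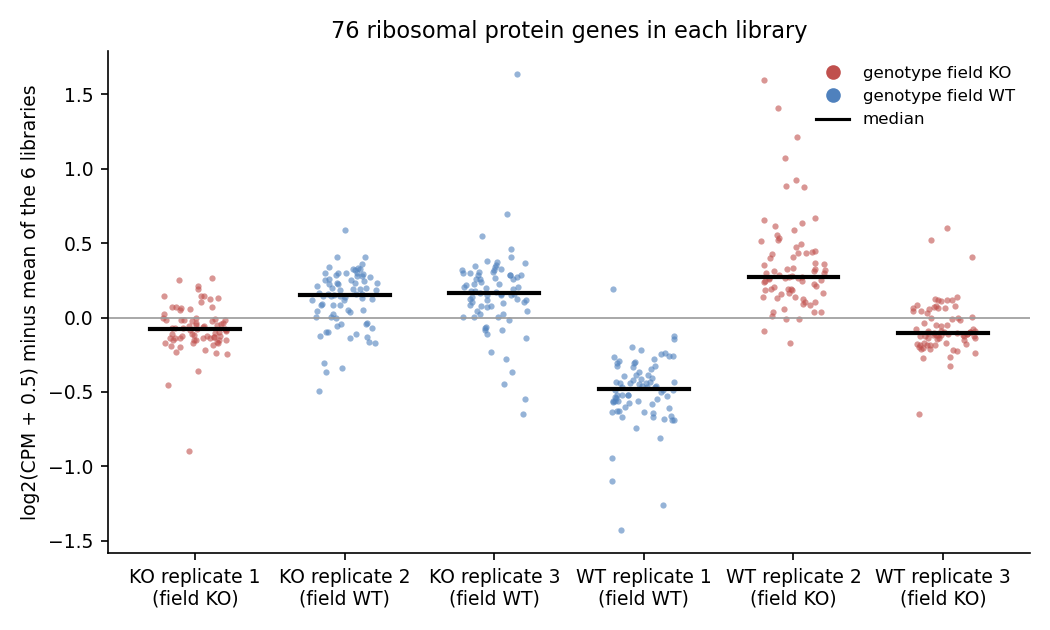
Deviation of each of the 76 genes (points) from its own mean over the 6 libraries, on the log2(CPM + 0.5) scale, by library, with the median as a bar and the genotype field as the colour. WT replicate 1 has a median of -0.48 and WT replicate 2 of 0.28, and both colours occur above and below 0.

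By library name, no ribosomal protein gene passed the planned test between KO and WT. In edgeR's quasi-likelihood test 0 of 76 passed an adjusted p of 0.05, as did 0% of the 14708 genes tested. An unadjusted p under 0.05 was held by 0 of 76, against 1.49% of all genes, and DESeq2 called 0. Of the 76 genes, 57 were higher and 19 lower in KO, with a median log2 fold change of 0.14, against -0.02 over all genes tested, of which 45.5% were above 0. The median rested on single WT libraries: it was -0.015 without WT replicate 1 and 0.37 without WT replicate 2. Groups did not overlap, with KO higher, in 1 of 76 genes, against 3.33% of all genes.

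That gene was Rpl3, which reaches towards the peptidyl transferase centre. It was at 495, 541 and 543 CPM in KO replicates 1, 2 and 3, against 390, 444 and 448 CPM in WT replicates 1, 2 and 3. The log2 fold change was 0.30 (SE 0.14; edgeR quasi-likelihood adjusted p = 0.99993). By genotype field the same libraries gave -0.09 (SE 0.16), with overlapping groups.

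By genotype field, too, no ribosomal protein gene passed the test as planned, but 12 genes did not overlap between the groups, all higher in KO. In edgeR's quasi-likelihood test 0 of 76 passed, against 2 of 14708 genes (0.0136%). Of the 76, 43 were higher and 33 lower in KO, with a median log2 fold change of 0.04, against -0.01 over all genes. An unadjusted p under 0.05 was held by 11 genes, all higher in KO, against 4.34% of all genes in that direction and 1.35% in the other. Groups did not overlap, with KO higher, in 12 genes, among them Rpl18, Rpl19, Rpl23a, Rpl29, Rpl36, Rpl8, Rplp0, Rplp1, Rps15, Rps26 and Rps29. Over all genes that share was 7.48%; with KO lower, 0 of 76 were apart, against 4.49%.

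Rpl36 was at 44.4, 103 and 55.1 CPM in the libraries with the field KO (KO replicate 1, WT replicate 2, WT replicate 3), against 13.9, 34.2 and 26.1 CPM in the 3 with the field WT (WT replicate 1, KO replicate 2, KO replicate 3). It averaged 67.4 ± 31.1 CPM in the field KO and 24.8 ± 10.2 CPM in the field WT (SD, n = 3 each), and the groups did not overlap. The log2 fold change was 1.44 (SE 0.41; edgeR quasi-likelihood adjusted p = 0.783).

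Rpl29, a large-subunit protein also known as a heparin-binding protein, was at 38.0, 66.9 and 42.0 CPM in KO replicate 1, WT replicate 2 and WT replicate 3 (field KO), against 17.8, 22.3 and 23.0 CPM in WT replicate 1, KO replicate 2 and KO replicate 3 (field WT). On the log2 scale it differed by 1.22 (SE 0.22; edgeR quasi-likelihood adjusted p = 0.428). By library name it was -0.60 (SE 0.46), and that of Rpl36 -0.71 (SE 0.69), both with overlapping groups. The genes that share words with Rpl29 summed to 18.6, 19.2 and 12.9 CPM in the libraries with the field KO, against 10.3, 13.6 and 13.3 CPM in the 3 with the field WT. For Rpl36 that sum was 6.64, 6.06 and 2.02 CPM in the libraries with the field KO, against 4.44, 1.60 and 5.68 CPM in the 3 with the field WT. These sums overlapped between the groups, while the values of the 2 genes did not. Of the sharing genes in the table, 19 of 81 had counts for Rpl29 and 2 of 12 for Rpl36. The part of reads from copies in the values of Rpl29 and Rpl36 was not tested.

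The stalk of the large subunit, where translation factors dock, is built of RPLP0 and the acidic proteins RPLP1 and RPLP2. Rplp1 was at 281, 450 and 260 CPM in the libraries with the field KO, against 141, 187 and 201 CPM in the 3 with the field WT, and differed by 0.90 on the log2 scale (SE 0.22; edgeR quasi-likelihood adjusted p = 0.639). Rplp0 was at 749, 820 and 736 CPM in the field KO, against 498, 626 and 680 CPM in the field WT, which is 0.35 (SE 0.16) on the log2 scale. Rplp2 had overlapping groups, with 166, 234 and 131 CPM in the field KO, against 121, 139 and 145 CPM in the field WT. By library name the log2 fold changes of the 3 stalk genes were 0.0013 (Rplp0), -0.35 (Rplp1) and -0.11 (Rplp2).

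In the small subunit, Rps26 was at 106, 195 and 115 CPM in the libraries with the field KO, against 72.3, 101 and 82.0 CPM in the 3 with the field WT. Its log2 fold change was 0.70 (SE 0.23), and that of Rps29, a zinc-binding protein of the head of the subunit, 0.72 (SE 0.24), both at an edgeR quasi-likelihood adjusted p of 0.786. Rps15 stood at 0.47 (SE 0.21). Rpsa, also known as the laminin receptor, had 0.17 (SE 0.20), and Rps4x -0.12 (SE 0.16). Rps27a, which is made as a fusion with ubiquitin, had the lowest value of the 76, -0.46 (SE 0.22).

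**Figure D3:**
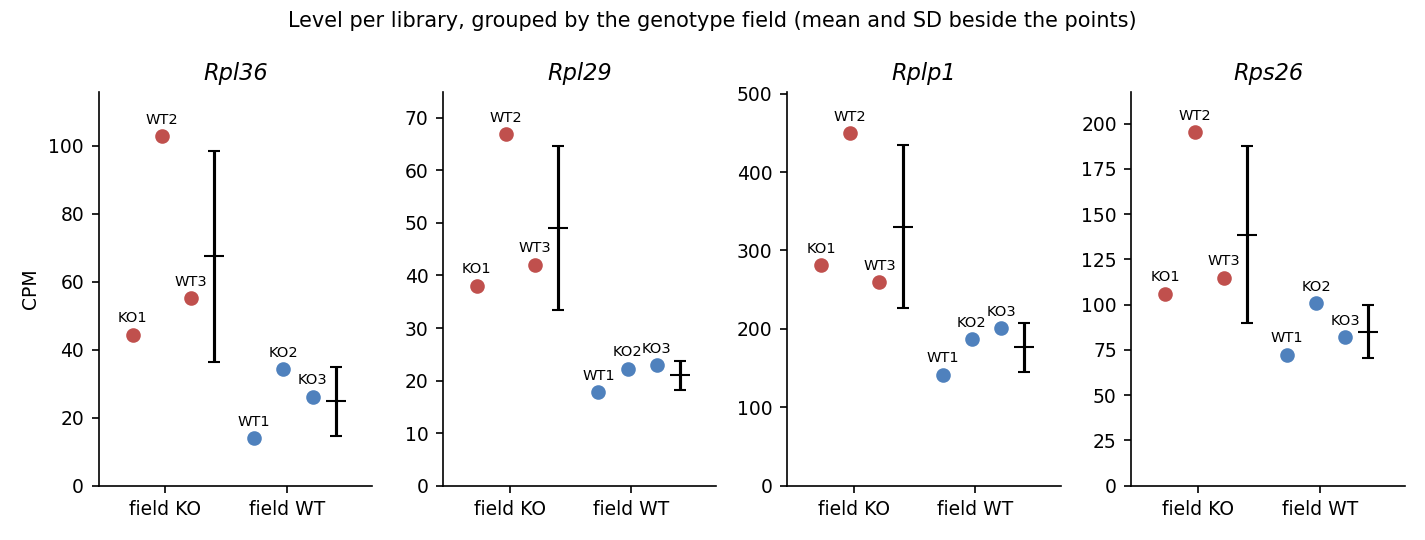
CPM of Rpl36, Rpl29, Rplp1 and Rps26 in each library, grouped by the genotype field with KO at the left, with the mean and SD of 3 libraries beside the points and library names above them. In all 4 genes the 3 libraries with the field KO lie above the 3 with the field WT, and WT replicate 2 is the highest.

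Whether any of these genes passed depended on the fit. The same tests were run under 20 other settings per reading, 13 planned and 7 added after seeing results. By genotype field at least 1 member passed in 8 of the 20 (3 planned, 5 added): Rpl29 in 8, Rpl36 in 6, Rplp1 and Rps26 in 4 each, and Rps29 and Rpl41 in 1. With the replicate number of the title as a block, 4 of 76 passed, all higher in KO: Rpl36 (adjusted p = 6.8e-05), Rpl29 (0.0012), Rplp1 (0.031) and Rps26 (0.045), all in edgeR's quasi-likelihood test. That fit called 51 of all genes (0.347%), 48 of them higher in KO (0.326%). The block without pair 1, 2 or 3 called 3, 2 and 6 members, against 0.483%, 0.442% and 0.646% of all genes. DESeq2 called 2 members on all genes with a count, against 0.137% of genes, and 2 on the filtered genes, against 0.116%. The fit without a low-count filter called 2, against 0.106%. Leaving out any 1 library of the fit without the block gave 0 members, with log2 fold changes of 1.00 to 1.74 for Rpl36 and 0.92 to 1.37 for Rpl29. By library name, members passed in 1 of the 20 settings, the block without the first pair, which holds only the 4 libraries where the readings are mirror images (0.483% of all genes).

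The differences by genotype field went with base composition. Across the 76 genes, Spearman's rho between transcript GC content and the log2 fold change was 0.59, and across the 13000 tested coding genes it was 0.52; genes share their libraries, so these are descriptions. Among the 38 GC-richer members the median was 0.22, with 31 higher in KO and 10 of the 12 that did not overlap. Over all genes tested, 7.48% did not overlap with KO higher, and this share was not taken for GC-rich genes alone. Among the 38 GC-poorer members it was -0.08, with 12 higher. By library name rho was -0.50 over the members and -0.03 over the coding genes. With a GC correction the log2 fold changes by genotype field were 1.11 (SE 0.37) for Rpl36, 1.02 (SE 0.20) for Rpl29, 0.70 (SE 0.20) for Rplp1 and 0.75 (SE 0.24) for Rps26. As in the planned fit, 0 members passed (0.0068% of all genes), and with the block as well 3 did: Rpl36, Rpl29 and Rps26 (0.184%).

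**Figure D4:**
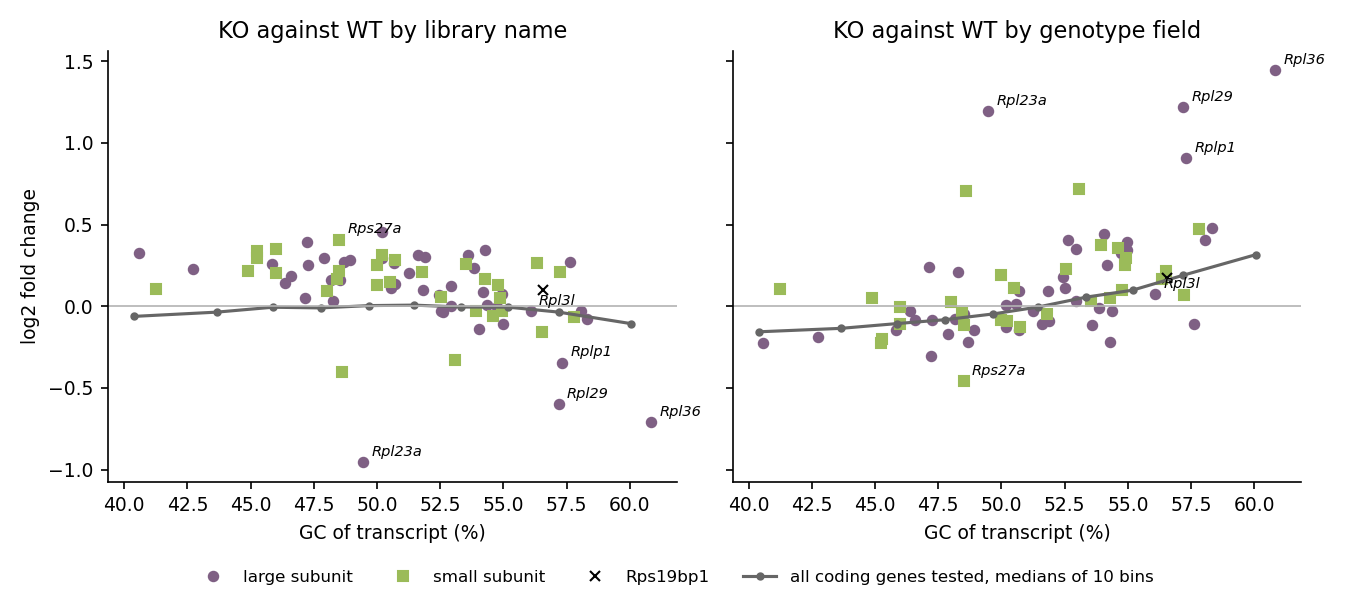
Log2 fold change (KO over WT) against the GC content of the transcript, in percent, for the 76 genes (points, by subunit) and for the 13000 tested coding genes (line, medians of 10 bins of equal size), by library name at the left and genotype field at the right. By genotype field both the genes and the line climb with GC, with a median of -0.16 in the GC-poorest bin and 0.32 in the GC-richest.

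Summed levels of 2 cell-type marker lists were also apart by genotype field. The 2 ventricular muscle markers, Myl2 and Myl3, summed to 416, 546 and 300 CPM in the libraries with the field KO, against 110, 102 and 87.8 CPM in the 3 with the field WT, so these groups did not overlap either. Unlike the ribosomal protein genes, Myl2 passed the planned test, at 3.09 on the log2 scale (edgeR quasi-likelihood adjusted p = 0.0039). Myl3 did not, at 1.20 (edgeR quasi-likelihood adjusted p = 0.213). The 4 markers of B and plasma cells summed to 71.6, 83.1 and 78.1 CPM in the field KO, against 107, 194 and 121 CPM in the field WT, with Ms4a1 at 0 in all libraries. The part of GC content, ventricular tissue or B cells in the values of Rpl36, Rpl29, Rplp1 and Rps26 was not tested beyond the GC correction.

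Paralogs that can replace a core protein were compared by level per length, as a percentage of the partner. Rpl3l, the striated-muscle form, and Rpl3 keep 73.2% identity over their coding sequences of 1221 and 1209 bases, and differ at 13 of the first 60, shown in capitals.
Rpl3l: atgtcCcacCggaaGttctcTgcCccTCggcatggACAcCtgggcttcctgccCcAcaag
Rpl3: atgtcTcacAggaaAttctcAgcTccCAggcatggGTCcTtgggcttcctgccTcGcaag

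Rpl3l stood at 3.51%, 3.41% and 4.32% of Rpl3 in KO replicates 1, 2 and 3, against 4.23%, 5.35% and 4.57% in WT replicates 1, 2 and 3. The groups overlapped, at 3.75 ± 0.50% in KO and 4.72 ± 0.57% in WT by library name, and at 4.48 ± 0.92% in KO and 3.99 ± 0.50% in WT by genotype field (SD, n = 3 each). The log2 fold change of Rpl3l itself was -0.03 (SE 0.20) by library name and 0.07 (SE 0.19) by genotype field.

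Rpl22l1, a paralog of the RNA-binding protein gene Rpl22, stood at 18.5 ± 4.3% of Rpl22 in KO and 17.7 ± 0.9% in WT by library name (SD, n = 3 each), with KO replicate 3 highest at 23.4%. Rps27l, a p53 target, stood at 14.1%, 13.3% and 12.7% of Rps27 in the libraries with the field KO, against 12.4%, 11.9% and 11.4% in the 3 with the field WT. These ratios did not overlap by genotype field, at 13.4 ± 0.7% in KO and 11.9 ± 0.5% in WT (SD, n = 3 each), although neither gene passed on its own, with 0.05 (SE 0.20) for Rps27l and -0.13 (SE 0.22) for Rps27. By library name the ratio was 12.5 ± 1.5% in KO and 12.8 ± 0.5% in WT. Rps27 shares 98.6% of its words with other genes, which makes the ratio uncertain. Rpl36al stood at 0.78% to 2.04% of Rpl36a, on 7.6% of a free gene body.

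**Figure D5:**
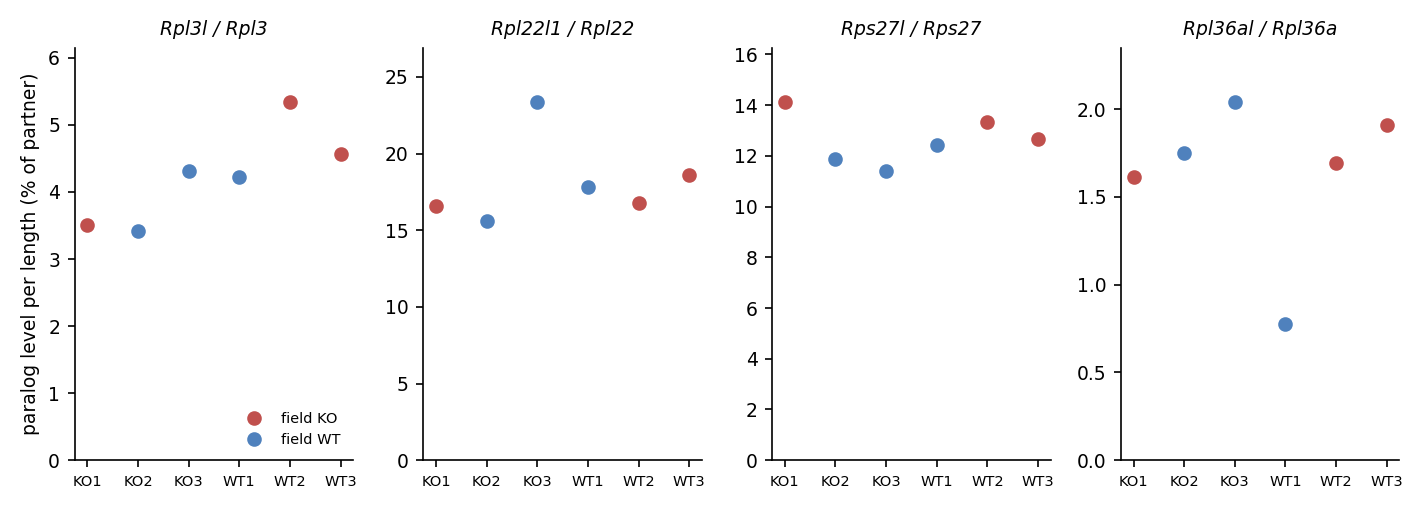
Level per length of 4 paralogs as a percentage of the partner gene, in each of the 6 libraries, coloured by genotype field. Rps27l over Rps27 is higher in the 3 libraries with the field KO (12.7% to 14.1%) than in the 3 with the field WT (11.4% to 12.4%), and the other 3 ratios overlap between the fields.

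The largest spread over the libraries was that of Rpl17, Rpl36 and Rpl23a, with SDs of 1.17, 0.97 and 0.81 on the log2(CPM + 0.5) scale. Rpl17 was at 2.61, 3.99 and 17.6 CPM in KO replicates 1, 2 and 3, against 1.92, 13.0 and 4.12 CPM in WT replicates 1, 2 and 3, so 1 library in each named group stood high. Rpl23a was at 11.2, 9.14 and 7.10 CPM in KO replicates 1, 2 and 3, against 8.34, 35.5 and 9.99 CPM in WT replicates 1, 2 and 3, with WT replicate 2 alone high. Both share most of their words with other genes (78.7% and 82.6%).

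Other genes of translation did not pass either. In edgeR's quasi-likelihood test 0 genes passed in each reading among 26 tested translation genes with a TOP start, 33 other translation factors, 78 genes of ribosome biogenesis, 75 of the mitochondrial ribosome, 37 of mTORC1 signalling and 10 chaperones of ribosomal proteins. Mitochondrial ribosomal protein genes were higher in KO in 64 of 75 by library name, with a median log2 fold change of 0.11, and in 39 of 75 by genotype field, with 0.03. Like the cytosolic genes they were lowest in WT replicate 1, with a median deviation of -0.24. Of the TOP genes, 19 of 26 were higher by library name, with a median of 0.07, and 13 of 26 by genotype field, with 0.0007. Eef1a1, the elongation factor that brings tRNAs to the ribosome, had 0.29 (SE 0.16) by library name, and Mrpl49 of the mitochondrial ribosome 0.34 (SE 0.14). Rrp9, a component of the U3 snoRNP for ribosomal RNA processing, had 0.72 (SE 0.19; edgeR quasi-likelihood adjusted p = 0.694) by genotype field, and Akt1, a kinase upstream of mTORC1, 0.43 (SE 0.15).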

How the data were processed

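The deposited values are raw counts per Ensembl gene, made by the authors with HISAT2 2.1.0 and featureCounts 1.5.0-p3 on GRCm38 after FastQC 0.11.5 and MultiQC 1.7, per the submitters' processing notes. Not given in the sources used here are the annotation release and the feature type, strand and multimapping settings. The kit, TruSeq v2 per the labels' protocols, does not mark strand. Symbols were matched for 54723 of 54838 identifiers; positions, transcript lengths and GC came from GENCODE M21, a GRCm38 annotation, using for each gene the best-supported, shortest principal transcript.

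Counts were tested with edgeR 4.0.16 in R 4.3.3 (quasi-likelihood F test, robust, TMM, filterByExpr, two-sided, Benjamini-Hochberg over 14708 genes, adjusted p 0.05), checked on simulated data. The SE was derived by dividing the size of the log2 fold change by the root of F. DESeq2 1.42.0 was an alternative, run on all genes with a count. CPM values are TMM-normalised, and 0.5 CPM was added before logarithms. The title numbers were taken as pairs for the block, although the labels used here number the biological replicates and name no pairing. Deviations of same-numbered libraries from their group means correlated at 0.13 to 0.17 by library name and 0.12 to 0.31 by genotype field. Libraries of different numbers were not compared in this way, so these values do not show that the pairs are real.

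The members, gene lists and tests were chosen with earlier results of these data known. The transcript per gene and the gene set for DESeq2 were changed after first results; the GC correction, the block without single pairs and the fit without libraries at odds with Prkce were added after seeing results. The longest transcript, used first, gave a rho with GC over the members of 0.55 by genotype field and -0.44 by library name. Genes named are the markers Rpl36 and Rpl29, the stalk genes, Rpsa, paralog pairs, the smallest p in each direction and reading, extremes of level per length and of spread, and the 2 smallest p of each related list, of which examples are printed. Rpl41 and the non-overlapping genes were named after their values were seen. Some genes are not reported by name here.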

Additional observations from a re-analysis of the deposited data

How the results depend on the processing

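The count of members past the test by genotype field, 0 as planned, was 2 with DESeq2 and 2 without a low-count filter (Rpl29 and Rplp1 in both), 4 with the replicate block, 3 with the replicate block and GC correction, and 2 with DESeq2 on the filtered genes (Rpl29 and Rpl36). Leaving out single libraries or pairs gave 0 to 6 by genotype field and 0 to 3 by library name, and 0 to 1 genes of the related lists by genotype field. All counts above 0 when leaving out came from the replicate block without a pair: 3, 2 and 6 by genotype field without pairs 1, 2 and 3. The counts of genes called over the whole table by genotype field were 2 as planned, 18 and 16 with DESeq2 on all and on the filtered genes, 25 without the filter and 51 with the block. The median log2 fold change of the members was 0.14 by library name and 0.04 by genotype field as planned. When leaving out 1 library it ran from -0.015 to 0.37 by library name and from -0.13 to 0.17 by genotype field. The cause of these changes was not tested.

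Of 1540 values of named genes under the alternatives, 96 changed sign, 26 passed the test where the planned fit did not, and 1418 did neither. By genotype field the log2 fold change turned to -0.0053 (Rpl36al) with DESeq2, -0.0049 (Rpl36al) with DESeq2 on the filtered genes, -0.0068 (Rpl36al) with its size factors, -0.0026 (Rpl10) and -0.011 (Rpl36al) with library size alone, and -0.077 (Rpl3l) with the GC correction. With the replicate block and GC correction it was 0.013 (Rpl17), 0.011 (Rpl36a) and -0.076 (Rpl3l). In the numbered series alone it was -0.072 (Rpl10), -0.28 (Rpl36al), -0.12 (Rps27l) and -0.072 (Rpsa). Without KO replicate 2 and WT replicate 3, whose Prkce level stood against the genotype field, it was 0.082 (Rpl12), 0.071 (Rpl22), 0.13 (Rpl36a), 0.0084 (Rps27) and 0.035 (Rps4x).

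By library name it turned to 0.0039 (Rpl3l) and 0.016 (Rps15) with the GC correction, 0.020 (Rps15) with the replicate block and 0.067 (Rps15) with both. In the numbered series it was 0.12 (Eif2s3x), -0.25 (Rplp0) and -0.048 (Rps19bp1). Without KO replicate 3 and WT replicate 2, whose Prkce level stood against the library name, it was 0.15 (Rpl23a), 0.0074 (Rpl29), 0.18 (Rpl36), 0.22 (Rplp1), 0.27 (Rplp2), 0.28 (Rps15), 0.14 (Rps26) and 0.23 (Rps29).

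Leaving out single libraries or pairs turned the sign of 14 genes by genotype field, with ranges of -0.11 to 0.11 (Rpl10), -0.32 to 0.13 (Rpl12), -1.24 to 1.13 (Rpl17), -0.25 to 0.058 (Rpl22), -0.41 to 0.061 (Rpl22l1), -0.29 to 0.030 (Rpl3), -0.27 to 0.066 (Rpl36a), -0.41 to 0.50 (Rpl36al), -0.067 to 0.23 (Rpl3l), -0.073 to 0.34 (Rps19bp1), -0.37 to 0.087 (Rps27), -0.17 to 0.26 (Rps27l), -0.26 to 0.0093 (Rps4x) and -0.071 to 0.38 (Rpsa). By library name the ranges of 14 genes were -0.67 to 0.12 (Eif2s3x), -0.92 to 1.42 (Rpl17), -1.30 to 0.0011 (Rpl23a), -1.22 to 0.10 (Rpl29), -1.33 to 0.27 (Rpl36), -0.17 to 0.14 (Rpl3l), -0.25 to 0.24 (Rplp0), -0.81 to 0.31 (Rplp1), -0.30 to 0.31 (Rplp2), -0.34 to 0.35 (Rps15), -0.15 to 0.32 (Rps19bp1), -0.72 to 0.045 (Rps26), -0.66 to 0.18 (Rps29) and -0.80 to 0.052 (Snhg8). Leaving mitochondrial counts out of the total, or adding symbols with -ps, moved the difference in share of counts by less than its spread.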
